A study of Mus musculus with 39 samples.

Results

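The 6 genes described here are Tet1, Tet2 and Tet3, which encode the TET dioxygenases, Dnmt1, which encodes a DNA methyltransferase, and Uhrf1 and Dnmt3l, which encode methylation cofactors. They were chosen by name, among 21938 protein-coding genes, and every peak that touched the gene body or 20 kb on either side of it was read from 36 CUT&Tag peak lists. CUT&Tag uses an antibody to direct a transposase to DNA that carries a histone mark. There were 3 replicate libraries for each of 4 marks (H3K4me1, H3K27ac, H3K27me3, H3K9me3) and each of 3 sorted populations of nEnd, a naive extra-embryonic endoderm culture. All populations came from the OCT4-mCherry reporter line without further treatment and were sorted by FACS as Oct4+, as positive for both the reporter and PDGFRA (DP), or as Pdgfra+. nEnd was made from embryonic stem cells by way of primitive endoderm and grown on mouse embryonic fibroblast feeders in medium with Activin A, CHIR99021 and LIF, so 1 reporter line stands for the cell type. A sorted population may hold cells in several states, and a wider marked area and a larger share of marked cells cannot be told apart in these lists.

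TET enzymes oxidise methylated cytosine, which opens a route to DNA demethylation, and Tet1 and Tet2 are the members best known from mouse embryonic stem cells, while Tet3 is best known from the oocyte and the zygote. DNMT1 copies methylation to the new strand after replication, and UHRF1 brings it to hemimethylated CpG sites. DNMT3L has no catalytic activity of its own and stimulates the de novo methyltransferases, chiefly in germ cells and early embryonic cells. H3K4me1 marks enhancers, H3K27ac active enhancers and promoters, H3K27me3 regions held by Polycomb, and H3K9me3 heterochromatin.

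Depth was unknown, and the lists differed in length. Oct4+ lists of H3K27ac held 8574 to 65131 peaks, those of DP 3079 to 12244 and those of Pdgfra+ 4792 to 7128. The weakest peak listed, by total signal (fragment coverage summed over its bases), stood at 5460 to 6021 in Oct4+ lists, 13683 to 14586 in DP lists and 8736 to 28044 in Pdgfra+ lists. A weak peak could therefore be listed in Oct4+ and not in the other populations. All 5 pluripotency markers examined (Pou5f1, Nanog, Esrrb, Sox2 and Zfp42) had an H3K27ac peak within 20 kb in at least 2 of 3 Oct4+ libraries and 0 of 5 did so in DP or Pdgfra+, although DP replicate 1 had peaks at Pou5f1 and Zfp42 and Pdgfra+ replicate 3 at Pou5f1. All 5 endoderm markers (Gata6, Gata4, Sox17, Pdgfra and Col4a1) were so marked in DP and Pdgfra+. The labels and markers also disagreed in part, since 4 of the 5 endoderm markers had peaks in Oct4+ replicates 1 and 2, at mean coverages of 3.78 and 9.14%, against 0 in replicate 3. Of 5 trophectoderm markers (Cdx2, Gata3, Elf5, Krt8 and Tfap2c), 4 were marked in at least 2 of 3 Oct4+ libraries and 3 each in DP and Pdgfra+. Of 5 fibroblast markers (Col1a1, Col1a2, Thy1, Twist1 and Prrx1), which the feeders would carry, 1 (Col1a1) was so marked in Oct4+ and none in DP or Pdgfra+, and Prrx1 was at 0 in all 9 libraries. Oct4+ replicate 2 had the longest list, 65131 peaks, and the highest mean coverage of fibroblast markers, 4.73%, and gaps that changed by over 1.5 times without it are given with each gene below.

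Of the 432096 peaks in all lists, the 6 windows held 292. H3K27ac gave 163 of them, with 103 in Oct4+, 34 in DP and 26 in Pdgfra+. H3K4me1 gave 108, with 45, 47 and 16. H3K9me3 gave 13, of which 10 were in Oct4+. H3K27me3 gave 8, with 4 in Oct4+, 4 in DP and 0 in Pdgfra+. Merging over the 9 libraries of each mark left 86 regions, of which 24 had a peak in all 3 libraries of at least 1 population.

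Each library was summarised by covered percent, the share of a gene's window that lies under listed peaks. The 3 populations were compared gene by gene with an exact permutation test of the F statistic over all 1680 assignments of 9 libraries, in which the smallest possible p was 0.00357. After Benjamini-Hochberg adjustment over all genes with a peak, 0 of 6 members passed an adjusted p of 0.05 for H3K4me1 (0% of 13301 genes), 0 of 6 for H3K27ac (0% of 18706), 0 of the 2 with a peak for H3K27me3 (0% of 9829) and 0 of the 3 with a peak for H3K9me3 (0% of 13215). Such a call would have needed 703 to 1337 genes at the smallest p of the exact permutation test, depending on the mark, and 18 to 91 reached it. At an unadjusted exact permutation p under 0.05 stood 0 of 6 members for H3K4me1, against 6.26% of all genes, and Tet1 and Tet2 for H3K27ac, against 8.68%. Likewise 0 of 2 did so for H3K27me3, against 7.26%, and Tet3 for H3K9me3, against 12.5%. limma on log2(covered kb + 1) called Tet3 for H3K27me3 (adjusted p = 0.0438, with 1.97% of genes called) and for H3K9me3 (adjusted p = 0.00487, with 7.72% called). It called 0 of 6 for H3K27ac (3.75% of genes called, 2 members at an unadjusted p under 0.05) and 0 of 6 for H3K4me1 (0.0677% called, 1 member at an unadjusted p under 0.05). Adjusted calls thus rested on the tool, and the values below are given library by library.

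**Figure D1:**
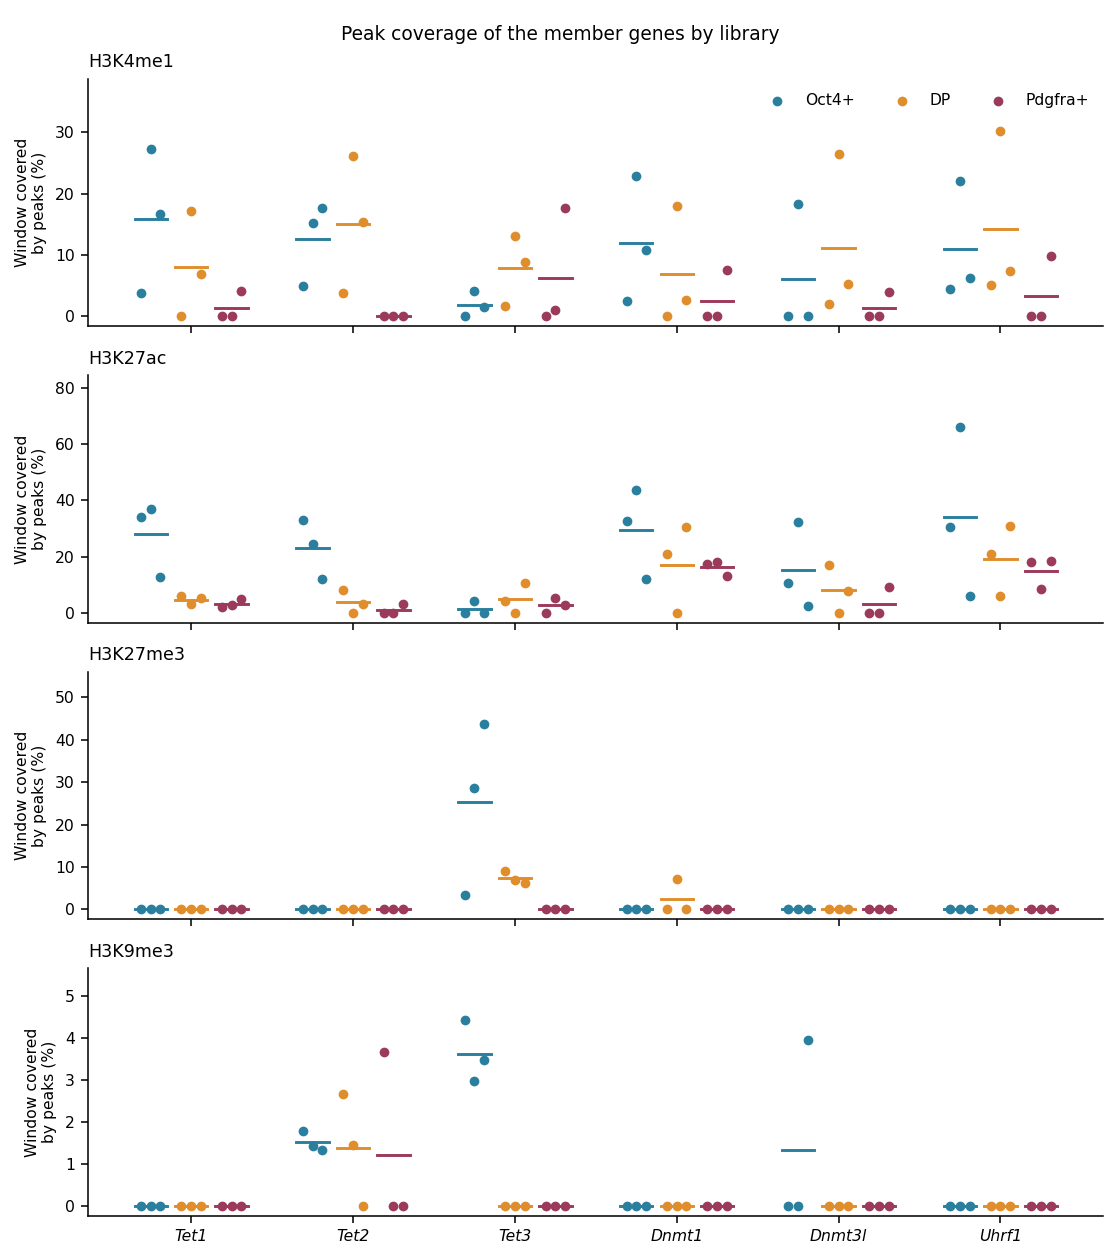
Covered percent of each gene's window (y axis, percent) for the 6 genes (x axis) in the 4 marks, with points for the 3 replicate libraries of each population and lines for their mean. The 3 Oct4+ H3K27ac points of Tet1 and Tet2 lie above all points of DP and Pdgfra+, H3K27me3 is seen almost only at Tet3, and the 3 H3K9me3 points of Tet3 above 0 are those of Oct4+.

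Tet1 (ENSMUSG00000047146.17, chr10:62804570-62908996, minus strand, GRCm38) had wide H3K27ac in Oct4+ and little beyond its promoter elsewhere. H3K27ac covered 34.1, 36.9 and 12.7% of its window in Oct4+ replicates 1, 2 and 3. The same measure was 5.93, 3.10 and 5.22% in DP and 2.20, 2.76 and 4.84% in Pdgfra+. Every Oct4+ library lay above every other library, with means of 27.9 ± 13.2, 4.75 ± 1.47 and 3.26 ± 1.39% (SD, n = 3 each; exact permutation p = 0.00714, adjusted p = 0.443; limma adjusted p = 0.0531). Complete separation of Oct4+ above DP held for 2 of 6 members, Tet1 and Tet2, against 8.23% of all genes, and of Oct4+ above Pdgfra+ for the same 2, against 15.8%. Oct4+ replicate 3 listed 8574 peaks down to a total signal of 5716, whereas DP replicates 1 and 3 listed 10957 and 12244 down to 13683 and 14586. With 1 library left out at a time, the Oct4+ minus Pdgfra+ gap of 24.6 percentage points ran from 20.1 to 32.2. At a common minimum of total signal it was 3.99 percentage points, and there and by share of total signal the populations overlapped. With equal numbers of peaks per library the separation from DP was kept and that from Pdgfra+ was lost.

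The RefSeq start site of Tet1 lies at position 62887324, inside the annotated gene, and the acetylated promoter is shown here because it was the Tet1 element listed in most libraries of every population. It is the RefSeq sequence of chr10:62887275-62887574 (GRCm38, minus strand, from 250 bases before to 50 after the start), with CpG dinucleotides, the sites these enzymes act on, in capitals.
Tet1 promoter: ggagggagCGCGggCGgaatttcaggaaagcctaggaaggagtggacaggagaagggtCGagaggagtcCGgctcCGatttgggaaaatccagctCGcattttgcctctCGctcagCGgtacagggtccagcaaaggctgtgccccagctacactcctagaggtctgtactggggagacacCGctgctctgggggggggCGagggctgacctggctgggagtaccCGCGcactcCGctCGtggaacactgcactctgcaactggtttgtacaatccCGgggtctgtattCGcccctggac
The 17 CpGs of this window are matched or passed by 31.4% of the 32851 RefSeq promoters.

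An H3K27ac peak overlapped this promoter, read from 1000 bases before to 100 bases after a start site, in 3 of 3 Oct4+, 3 of 3 DP and 2 of 3 Pdgfra+ libraries, with Pdgfra+ replicate 1 the exception. In DP the promoter peaks ran from -0.689 to 3.33 kb at their widest, in replicate 1. In Oct4+ the acetylated area reached upstream, to -19.2 kb in replicate 1, -20.4 kb in replicate 2 and -14.3 kb in replicate 3. It passed over other annotated start sites at -11.8 and -5.66 kb, which had H3K27ac in 3 of 3 Oct4+ libraries and 0 of 6 others. Further H3K27ac regions in the introns at 12.9 to 20.7 kb and 37.5 to 44.4 kb were also listed in 3 of 3 Oct4+ and 0 of 6 other libraries. The upstream peaks had total signals of 67239 and 49716 at their largest in Oct4+ replicates 1 and 2, above the lowest listed value of every other list, but 5737 to 8471 in replicate 3, below all of those values. The peak at 90.4 to 97.0 kb lay at the promoter of the neighbouring gene Ccar1 and was listed in all 9 libraries.

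H3K4me1 at Tet1 followed with more overlap. It covered 3.81, 27.2 and 16.6% of the window in Oct4+, 0, 17.2 and 6.87% in DP and 0, 0 and 4.13% in Pdgfra+, and the means of 15.8 ± 11.7, 8.01 ± 8.64 and 1.38 ± 2.38% (SD, n = 3 each) gave an exact permutation p of 0.175. The region at 15.0 to 22.3 kb was the only one listed in 3 of 3 Oct4+ libraries, with 1 of 3 in DP and 0 of 3 in Pdgfra+. The DP and Oct4+ values overlapped. Without Oct4+ replicate 2 the Oct4+ minus Pdgfra+ gap was 8.82 in place of 14.5 percentage points. No H3K27me3 or H3K9me3 peak was listed at Tet1 in any of the 18 libraries of those marks.

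Tet2 (ENSMUSG00000040943.12, chr3:133463679-133545139, minus strand) had no other protein-coding gene in its window. Its introns carried H3K4me1 in Oct4+ and DP but H3K27ac mostly in Oct4+. H3K4me1 covered 4.88, 15.2 and 17.6% of the window in Oct4+, 3.76, 26.2 and 15.3% in DP and 0, 0 and 0% in Pdgfra+. All 6 Oct4+ and DP libraries had peaks, and their values overlapped (means of 12.6 ± 6.76 and 15.1 ± 11.2%, SD, n = 3 each). Every Oct4+ library lay above every Pdgfra+ library for 1 of 6 members, Tet2, against 10.3% of genes. A listed peak in 3 of 3 Oct4+ and 0 of 3 Pdgfra+ libraries was found for 1 of 6 members, Tet2, against 6.92% of genes, and in 3 of 3 DP and 0 of 3 Pdgfra+ for Tet2 as well, against 2.29%. Over the 3 populations the exact permutation p was 0.129 and the adjusted p 0.747. The Pdgfra+ lists held 1723, 1074 and 10620 peaks down to total signals of 4624, 4194 and 8007, and those of Oct4+ replicate 1 and DP replicate 1 held 4127 and 4371 down to 5344 and 6164. Of the peaks of DP replicate 1 at Tet2, one had a total signal of 6263, below the limit of Pdgfra+ replicate 3, and the other 11388. With equal numbers of peaks per library, or at a common minimum of total signal, the separation was lost, and the Oct4+ minus Pdgfra+ gap of 12.6 percentage points was 6.63 and 9.6.

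H3K4me1 fell in a region at 5.83 to 14.9 kb (chr3:133529470-133538555) and another at 15.7 to 21.5 kb (chr3:133522886-133528662) downstream of the RefSeq start site, both intronic and both listed in 3 of 3 Oct4+, 3 of 3 DP and 0 of 3 Pdgfra+ libraries. In the first of them the total signals of single peaks were 8683 to 31670 in Oct4+ and 10638 to 54639 in DP. The 300 bases around the maximum of its largest peak, from DP replicate 2 (chr3:133534063-133534362, plus strand), are shown because all Oct4+ and DP libraries and no Pdgfra+ library had the mark in this region, with CpGs in capitals.
Tet2 intronic element: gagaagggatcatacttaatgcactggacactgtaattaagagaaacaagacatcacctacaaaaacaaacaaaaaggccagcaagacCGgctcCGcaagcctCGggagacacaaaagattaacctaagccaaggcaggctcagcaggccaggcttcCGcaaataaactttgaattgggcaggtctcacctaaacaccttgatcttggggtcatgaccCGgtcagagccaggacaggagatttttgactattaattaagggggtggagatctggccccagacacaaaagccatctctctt
Its 5 CpGs are matched or passed by 40.6% of the 68623 windows of this length at H3K4me1 maxima.

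H3K27ac covered 32.9, 24.5 and 12.1% of the Tet2 window in Oct4+, 8.13, 0 and 3.27% in DP and 0, 0 and 3.17% in Pdgfra+. Every Oct4+ library lay above every other, with means of 23.2 ± 10.4, 3.80 ± 4.09 and 1.06 ± 1.83% (SD, n = 3 each; exact permutation p = 0.0143, adjusted p = 0.443; limma adjusted p = 0.0681). The separation held with equal numbers of peaks and was lost at a common minimum of total signal, where the gap of 22.1 percentage points was 8.03. The regions at 15.9 to 27.4 kb, in an intron, and 54.7 to 64.0 kb, over an exon, were acetylated in 3 of 3 Oct4+ and 0 of 6 other libraries. The one at 7.23 to 15.0 kb, over the element printed above, was acetylated in 3 of 3 Oct4+ libraries, in DP replicate 1 and in 0 of 3 Pdgfra+. Its total signals of 44638, 32034 and 24821 in Oct4+ stood above the lowest listed values of all 3 DP lists and of Pdgfra+ replicate 2, but the last of them stood below those of Pdgfra+ replicates 1 and 3. The Tet2 promoter itself, with 57 CpGs in 300 bases, a number reached by 0.152% of RefSeq promoters, had H3K27ac in 2 of 3 Oct4+, 2 of 3 DP and 1 of 3 Pdgfra+ libraries. H3K9me3 was seen at 1 place, 89.1 to 93.6 kb from the start site and beyond the gene's end, in 3 of 3 Oct4+, 2 of 3 DP and 1 of 3 Pdgfra+ libraries. No H3K27me3 peak was listed at Tet2.

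**Figure D2:**
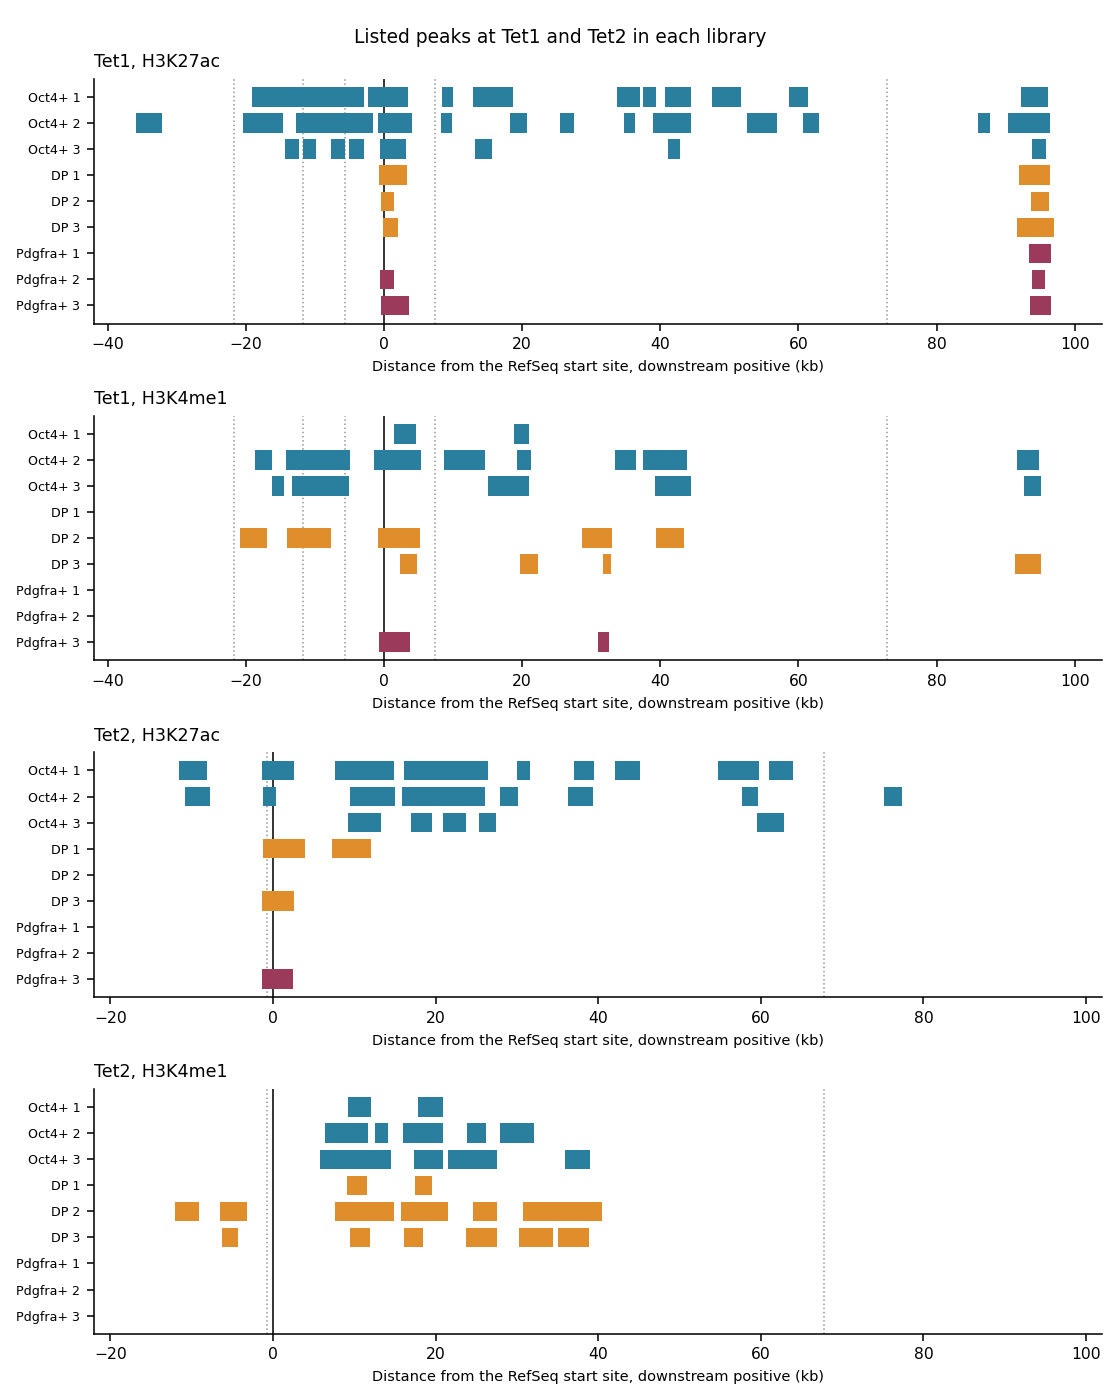
Listed H3K27ac and H3K4me1 peaks at Tet1 and Tet2 in the 9 libraries of each mark, 1 row per library, against the distance from the RefSeq start site in kb. Solid lines mark RefSeq start sites and dotted lines other annotated ones. The Tet2 H3K4me1 rows of Oct4+ and DP are filled and those of Pdgfra+ empty, while H3K27ac away from the promoters lies mostly in the Oct4+ rows.

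Tet3 (ENSMUSG00000034832.15, chr6:83362373-83459084, minus strand) was the only member with H3K27me3 in more than 1 library. H3K27me3 covered 3.46, 28.5 and 43.7% of its window in Oct4+ and 9.0, 6.94 and 6.19% in DP, and 0% in each Pdgfra+ library. The populations with the mark overlapped each other, and the means were 25.2 ± 20.3, 7.38 ± 1.46 and 0% (SD, n = 3 each; exact permutation p = 0.111, adjusted p = 0.654). Complete separation of Oct4+ above Pdgfra+ held for Tet3, 1 of the 2 members with a peak, against 3.32% of genes. As Pdgfra+ was at 0, this was also a peak in 3 of 3 Oct4+ and 0 of 3 Pdgfra+ libraries, found for 3.11% of genes, and likewise in 3 of 3 DP and 0 of 3 Pdgfra+, found for 5.33%. The Oct4+ lists held 1629, 2948 and 5785 peaks down to total signals of 8165, 13162 and 23885, and the Pdgfra+ lists 1143, 2841 and 6151 down to 4589, 7977 and 25863. The Tet3 peak of Oct4+ replicate 1, at 20129, was below the limit of Pdgfra+ replicate 3, and those of the other Oct4+ and DP libraries, 43035 to 719074, were above it. With 1 library left out at a time the gap between Oct4+ and Pdgfra+ ran from 16 percentage points, without Oct4+ replicate 3, to 36.1, without Oct4+ replicate 1. At a common minimum of total signal the gap was 24.1 against 25.2 percentage points, but the groups overlapped, and with equal numbers of peaks it was 25.2 and Oct4+ stayed above Pdgfra+.

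Upstream of the RefSeq start site (position 83441678) lie annotated start sites at -17.4 and -14.7 kb, and the mark met the promoter windows of both in 3 of 3 Oct4+ and 3 of 3 DP libraries. It was 1 narrow peak from -17.9 to -13.2 kb in Oct4+ replicate 1, and a domain from -26.1 to 33.7 kb with a total signal of 719074 in replicate 3. At the RefSeq start site itself it was listed in 2 of 3 Oct4+ libraries and in no other. The maximum of the largest peak is shown because these bases lie between those start sites and under a peak in all 6 Oct4+ and DP libraries (chr6:83457091-83457390, plus strand, CpGs in capitals).
Tet3 upstream promoter region: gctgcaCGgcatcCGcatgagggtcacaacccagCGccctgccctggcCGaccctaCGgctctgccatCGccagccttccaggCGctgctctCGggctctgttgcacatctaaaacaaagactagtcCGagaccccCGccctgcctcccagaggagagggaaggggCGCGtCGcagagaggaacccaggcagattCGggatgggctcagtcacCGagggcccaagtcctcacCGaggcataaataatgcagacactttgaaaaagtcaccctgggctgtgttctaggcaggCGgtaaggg
It holds 17 CpGs, a number reached by 30.9% of the 39385 windows at H3K27me3 maxima. Read from 1000 bases before to 100 bases after it, the start site at -14.7 kb had 117 CpGs and a GC content of 72.9%.

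H3K27ac was found at the same start site in 1 of 3 Oct4+, 2 of 3 DP and 2 of 3 Pdgfra+ libraries, and at the RefSeq start site in 0 of 3, 1 of 3 and 1 of 3. In DP the acetylated intervals of replicates 1 and 3, -16.1 to -12.6 kb in each, lay inside the H3K27me3 intervals of the same-numbered libraries. Whether the marks shared cells cannot be told from separate libraries. H3K27ac covered 0, 4.17 and 0% of the Tet3 window in Oct4+, 4.34, 0 and 10.5% in DP and 0, 5.34 and 2.71% in Pdgfra+, and the groups overlapped (exact permutation p = 0.55, n = 3 each). Without Oct4+ replicate 2 the Oct4+ minus Pdgfra+ gap was -2.68 in place of -1.29 percentage points. Part of the coverage in this window belonged to the neighbour Bola3. An H3K27ac peak lay at its promoter in 1 of 3 Oct4+, 2 of 3 DP and 1 of 3 Pdgfra+ libraries. An H3K4me1 peak lay there in 1 of 3, 2 of 3 and 0 of 3. H3K4me1 covered 0, 4.12 and 1.53% in Oct4+, 1.76, 13.1 and 8.89% in DP and 0, 1.11 and 17.7% in Pdgfra+ (exact permutation p = 0.611, n = 3 each). Within that spread, an intronic H3K4me1 region at -10.2 to -7.07 kb (chr6:83448748-83451896) was listed in 3 of 3 DP libraries and in 0 of 6 others. Its total signals in DP replicates 1, 2 and 3 were 6808, 21374 and 9392. The first of these was below the lowest listed values of Oct4+ replicates 2 and 3 (8222 and 7219) and Pdgfra+ replicate 3 (8007). A weak peak could thus be unlisted in those libraries.

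H3K9me3 at Tet3 was listed in Oct4+ alone, at 4.41, 2.97 and 3.46% of the window, against 0 in all 6 other libraries. The mean of 3.61 ± 0.732% (SD, n = 3) gave an exact permutation p of 0.0357, the smallest possible when 6 values tie at 0, and an adjusted p of 0.313. A peak in 3 of 3 Oct4+ and 0 of 3 DP libraries was found for 1 of the 3 members with a peak, against 4.89% of genes, in 3 of 3 Oct4+ and 0 of 3 Pdgfra+ for the same gene, against 8.26%, and every Oct4+ library lay above every Pdgfra+ library for the same gene, against 13.0%. The sites were 2 in each library. Merged over libraries, the one at 35.1 to 39.1 kb (chr6:83402627-83406548) held exon 3 of the transcript from the RefSeq start site, an exon of 2158 bases with coding sequence, and the other at 65.8 to 68.1 kb (chr6:83373599-83375916) held exons 7 and 8. Soft-masked repeats made up 7.16 and 7.55% of them. Their total signals were 4780 to 13580. Of the 6 peaks, 5 passed the lowest listed value of every DP list, and 1 that of every Pdgfra+ list, of which replicate 1 held 29970 peaks with none below 8993 and none at Tet3. At that common minimum of total signal, with equal numbers of peaks, and with the 50% of peaks of highest signal, the separation was lost and the gap was 0.956, 1.66 and 2.18 percentage points.
Tet3 exon 3 site: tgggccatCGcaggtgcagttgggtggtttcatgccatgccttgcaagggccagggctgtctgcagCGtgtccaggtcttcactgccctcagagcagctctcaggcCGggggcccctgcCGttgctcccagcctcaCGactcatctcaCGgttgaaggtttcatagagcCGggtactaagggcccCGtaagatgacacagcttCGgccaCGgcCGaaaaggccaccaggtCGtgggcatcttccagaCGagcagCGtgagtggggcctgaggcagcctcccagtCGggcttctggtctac
These 300 bases around the maximum in Oct4+ replicate 1 (chr6:83404360-83404659, plus strand, CpGs in capitals) lie in the coding part of exon 3 and are shown because they carried H3K9me3 in all 3 Oct4+ libraries. Their 15 CpGs are matched or passed by 1.13% of the 168703 windows at H3K9me3 maxima.

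**Figure D3:**
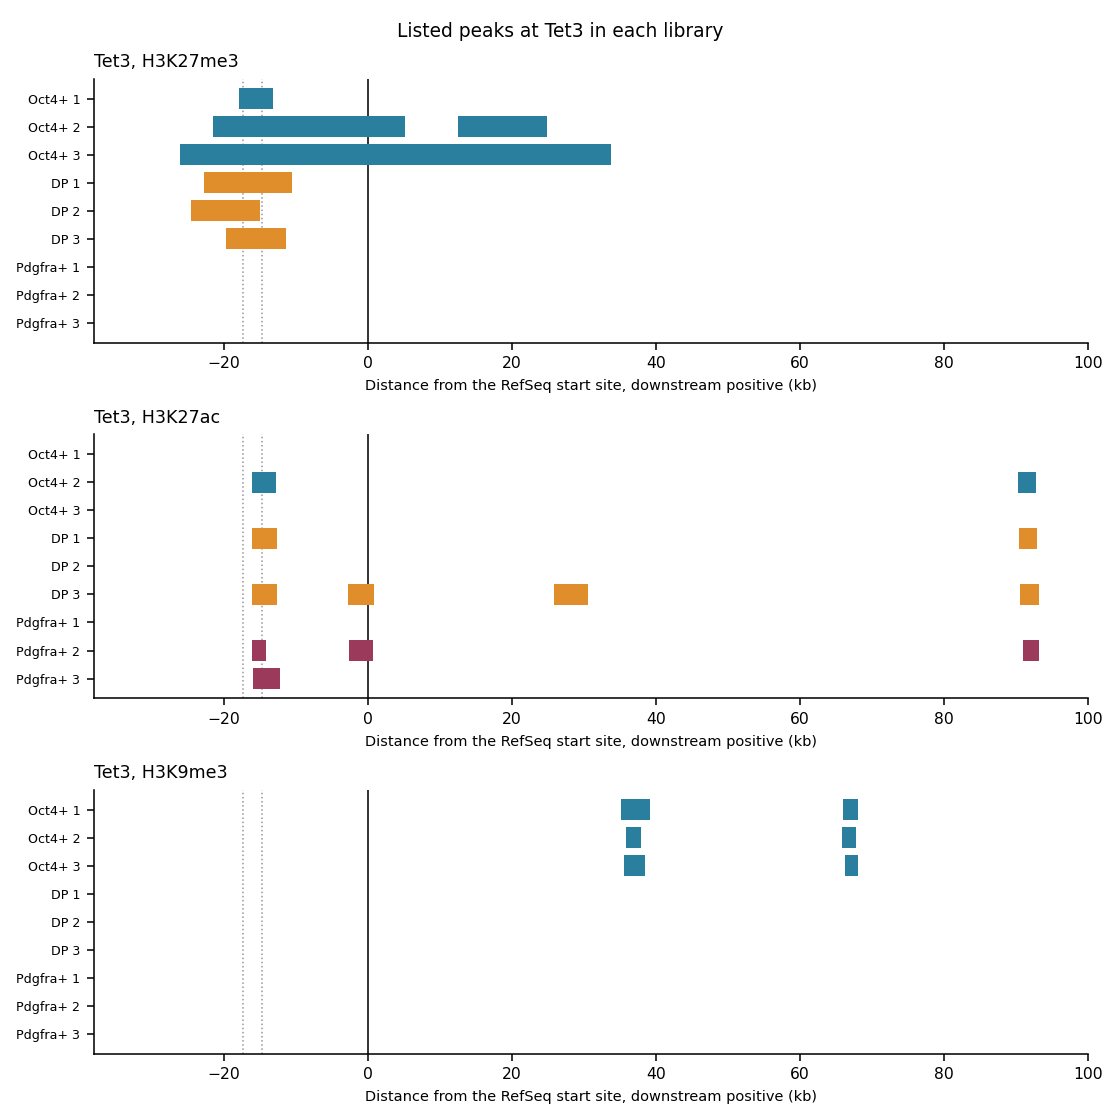
Listed H3K27me3, H3K27ac and H3K9me3 peaks at Tet3, 1 row per library, against the distance from the RefSeq start site in kb, with a solid line at that site and dotted lines at the other annotated start sites. H3K27me3 covers the start site at -17.4 kb in the 6 Oct4+ and DP rows. It also covers the one at -14.7 kb in these rows except DP replicate 2, where it ends at -15 kb. H3K9me3 appears at 2 places in the 3 Oct4+ rows.

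Dnmt1 (ENSMUSG00000004099.16, chr9:20907209-20959888, minus strand), the maintenance methyltransferase, was acetylated in libraries of all populations. H3K27ac covered 32.7, 43.8 and 12.2% of its window in Oct4+, 20.9, 0 and 30.5% in DP and 17.4, 18.1 and 13.2% in Pdgfra+, and the groups overlapped (means of 29.6 ± 16, 17.1 ± 15.6 and 16.2 ± 2.66%, SD, n = 3 each; exact permutation p = 0.45). The value of 0 belonged to DP replicate 2, the shortest H3K27ac list with 3079 peaks. Without Oct4+ replicate 2 the Oct4+ minus Pdgfra+ gap was 6.22 in place of 13.3 percentage points for H3K27ac, and 4.13 in place of 9.5 for H3K4me1. Annotated start sites at 6.91 kb from the first RefSeq one had a peak in 3 of 3 Oct4+, 2 of 3 DP and 2 of 3 Pdgfra+ libraries, and the first one in 0 of 9. Part of the coverage belonged to neighbours, since the region at 60.3 to 74.7 kb held the promoters of Eif3g and Ppan, and the one at -29.3 to -9.55 kb that of S1pr2. H3K4me1 covered 2.48, 22.8 and 10.8% in Oct4+, 0, 18.0 and 2.63% in DP and 0, 0 and 7.57% in Pdgfra+ (exact permutation p = 0.464, n = 3 each). H3K27me3 was listed in DP replicate 2 only and H3K9me3 in no library.

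Uhrf1 (ENSMUSG00000001228.14, chr17:56303321-56323486, plus strand), which brings DNMT1 to replicated DNA, had promoter acetylation in 8 of 9 libraries, DP replicate 2 being the exception. H3K27ac covered 30.7, 66.0 and 6.07% of its window in Oct4+, 21.1, 6.03 and 31.0% in DP and 18.1, 8.33 and 18.4% in Pdgfra+. The groups overlapped (34.2 ± 30.1, 19.3 ± 12.6 and 14.9 ± 5.73%, SD, n = 3 each; exact permutation p = 0.554). At Uhrf1 the same gap was 3.43 without Oct4+ replicate 2 in place of 19.3 percentage points for H3K27ac, and 2.08 in place of 7.61 for H3K4me1. The region at -20.2 to -9.30 kb was acetylated in all 9 libraries and held the promoter of Plin3. H3K4me1 at Uhrf1 covered 4.43, 22.0 and 6.32% in Oct4+, 5.16, 30.2 and 7.46% in DP and 0, 0 and 9.90% in Pdgfra+ (exact permutation p = 0.40, n = 3 each), and no H3K27me3 or H3K9me3 peak was listed.

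Dnmt3l (ENSMUSG00000000730.13, chr10:78041947-78063622, plus strand), the cofactor without catalytic activity, had H3K27ac in 3 of 3 Oct4+ libraries, 2 of 3 DP and 1 of 3 Pdgfra+. H3K27ac covered 10.6, 32.3 and 2.61% of its window in Oct4+, 16.9, 0 and 7.63% in DP and 0, 0 and 9.20% in Pdgfra+, so that all 3 groups overlapped (15.2 ± 15.4, 8.18 ± 8.47 and 3.07 ± 5.31%, SD, n = 3 each; exact permutation p = 0.432). At Dnmt3l the gap was 3.53 without Oct4+ replicate 2 in place of 12.1 percentage points for H3K27ac, and -1.33 in place of 4.76 for H3K4me1. These peaks met in the region at 3.23 to 9.89 kb, which holds the start site at 7.55 kb. The promoter of that start site had H3K27ac in 2 of 3 Oct4+, 2 of 3 DP and 1 of 3 Pdgfra+ libraries. In Oct4+ replicate 3 the peak ended short of it, at 6.52 kb. Oct4+ replicate 2 also had H3K27ac peaks at the neighbours Aire and Icosl, which no other library listed. The start site at 13.0 kb had H3K4me1 in 1 of 3 Oct4+, 3 of 3 DP and 1 of 3 Pdgfra+ libraries. H3K4me1 covered 0, 18.3 and 0% in Oct4+, 1.96, 26.5 and 5.25% in DP and 0, 0 and 4.0% in Pdgfra+ (exact permutation p = 0.464, n = 3 each). H3K9me3 was listed in Oct4+ replicate 3 only and H3K27me3 in none.

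**Figure D4:**
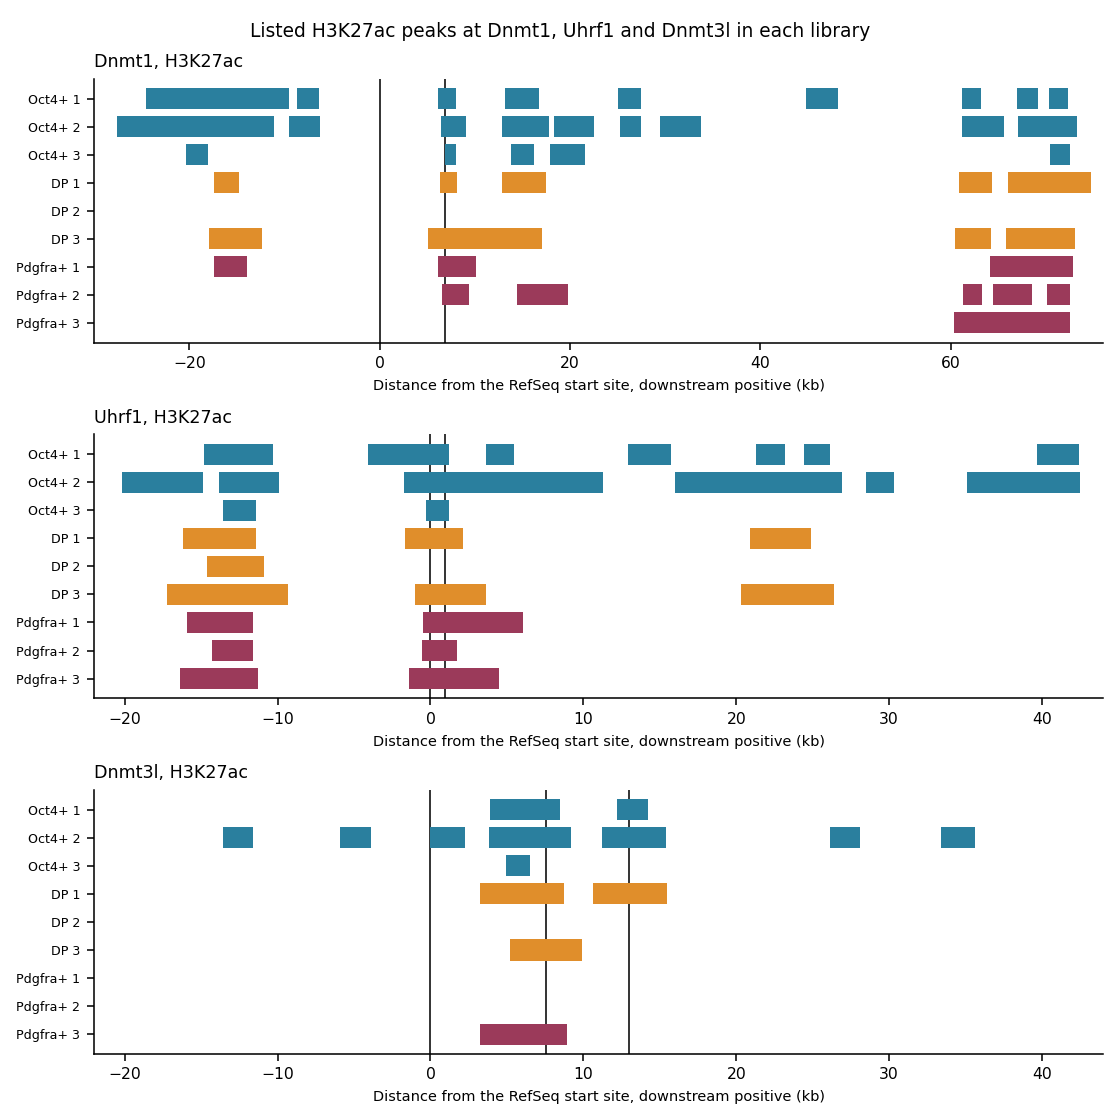
Listed H3K27ac peaks at Dnmt1, Uhrf1 and Dnmt3l, 1 row per library, against the distance in kb from the RefSeq start site that lies farthest upstream, with solid lines at all RefSeq start sites. The Uhrf1 promoter is covered in 8 of 9 rows, and the row of DP replicate 2 is empty for Dnmt1 and Dnmt3l.

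An H3K27ac peak at an annotated promoter in at least 2 of 3 libraries was found for 5 of 6 members in Oct4+ (35.4% of 21853 genes), 6 of 6 in DP (32.5%) and 4 of 6 in Pdgfra+ (20%). The member without it in Oct4+ was Tet3, and those without it in Pdgfra+ were Tet2 and Dnmt3l. H3K27me3 at a promoter was found for 1 of 6 in Oct4+ (10.1% of genes), 1 of 6 in DP (15.7%) and 0 of 6 in Pdgfra+ (6.32%), the member being Tet3. Tet1, Dnmt1 and Uhrf1 were thus acetylated at a promoter in all 3 populations.

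Away from promoters, regions of H3K4me1 with a peak in at least 2 of 3 libraries were classed as active where they overlapped H3K27ac regions of the same population, bivalent with H3K27me3, and primed with neither. Oct4+ had 8 such regions in the 6 windows, of which 8 were active. They lay in the windows of Tet1 (3), Tet2 (3) and Dnmt1 (2). Of the Dnmt1 regions, 1 (chr9:20889984-20894740) lay beyond the gene's end, within an H3K4me1 region over Ppan and Eif3g. It overlapped acetylated regions of all 3 populations. DP also had 8, of which 7 were primed, with 5 at Tet2, 1 at Tet1 and 1 at Tet3, and 1 was active, in the window of Uhrf1. That active region (chr17:56285976-56288875) lay upstream of Uhrf1, within an H3K4me1 region over Plin3, and overlapped acetylated regions of all 3 populations. Pdgfra+ had 0. Of the 7 primed DP regions, 4 overlapped an acetylated region of Oct4+, and all 4 were at Tet2. Over the whole genome 61.7% of 5829 Oct4+ regions and 33.2% of 5966 DP regions were active, 35.8 and 60.8% were primed, and 34.3% of the primed DP regions overlapped an Oct4+ acetylated region. DP had 8821 H3K27ac regions against 23571 in Oct4+, so a DP region classed as primed may hold unlisted H3K27ac. At Tet2, the primed DP region over the printed element had an H3K27ac peak in DP replicate 1, short of the 2 of 3 libraries needed. The Pdgfra+ consensus held 1760 regions in all, fewer than the others, so its count of 0 at the members stands on a short list. These counts are descriptions of regions that share 9 libraries and were not tested.

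**Figure D5:**
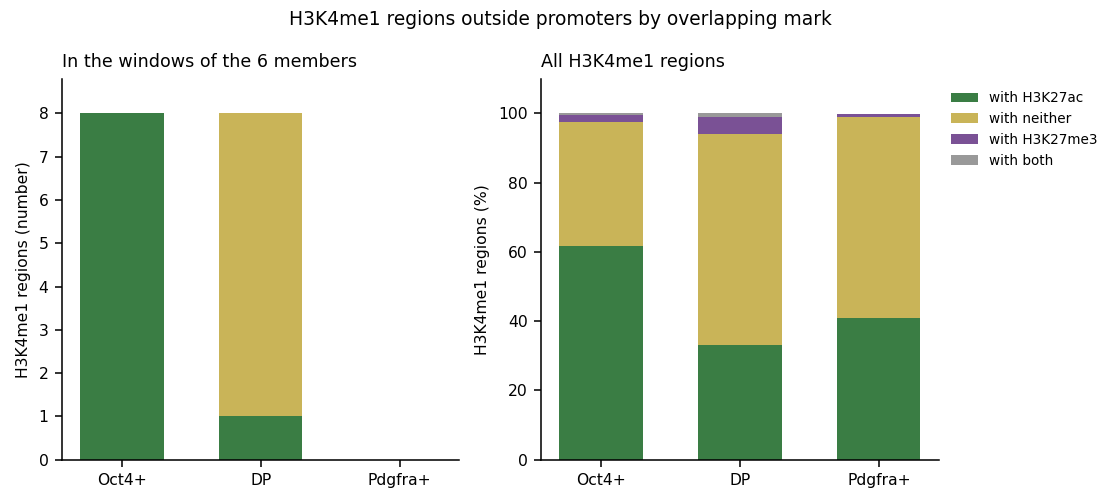
H3K4me1 regions outside promoters with a peak in at least 2 of 3 libraries of a population, by the mark they overlap, as a number in the windows of the 6 members (left) and as a percent of all such regions (right). The member regions are 8 with H3K27ac in Oct4+, and 7 with neither mark and 1 with H3K27ac in DP.

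The sequence windows were also searched on both strands for ATGCAAAT (the octamer bound by OCT4), TCAAGGTCA (ESRRB), TTCCNGGAA (STAT) and AGATAAG, a form known for Gata4 and Gata6. None of these letters was found in the 11 RefSeq promoters of the members or in the 12 windows at the maxima of regions that 1 population listed 3 times and another 0 times. They occur in 1.74, 0.423, 1.15 and 3.04% of RefSeq promoters and in 1.84, 1.58, 1.40 and 9.31% of windows at H3K4me1 maxima. The shares were 1.23, 0.843, 1.01 and 3.87% at H3K27ac maxima, 0.703, 0.546, 0.741 and 2.26% at H3K27me3 maxima and 2.90, 0.756, 0.761 and 4.13% at H3K9me3 maxima.

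A list of 24 further genes that write, read, remove or guard DNA methylation was read the same way. Oct4+ minus Pdgfra+ coverage by H3K27ac was positive for 21 of the 23 with a peak and for 5 of 6 members, with medians of 5.97 and 16.3 percentage points, against 4.56 over all genes, of which 91.2% were positive. By H3K4me1 it was positive for 20 of 21 and for 5 of 6 members, with medians of 2.53 and 8.55 against 1.26 over all genes, of which 65.7% were positive. For both marks the list median was taken over all 24 genes, with those lacking a peak counted as 0. The medians and shares over all genes used only genes with a peak, so the bases differ. Tet3 was the member on the other side for both marks. No gene of the list passed the adjusted threshold of the exact permutation test. The genes of the list for which every Oct4+ library lay above every Pdgfra+ library in H3K27ac included Tdg, Zfp57, Dppa3, Idh2 and Apobec1, and this held in H3K4me1 for 4, Usp7, Zfp57, Dppa3 and Apobec1, beside the shares of all genes given above for Tet1 and Tet2. Zfp57, a zinc finger protein that keeps methylation at imprinted loci, had H3K27ac at 39.6, 46.6 and 24.6% in Oct4+, 14.6, 0 and 10.3% in DP and 0% in each Pdgfra+ library. Dppa3, which encodes the factor STELLA, paired H3K4me1 coverage of 8.14, 41.9 and 22.3% in DP and 4.09, 4.83 and 3.24% in Oct4+ with H3K27ac of 8.45, 13.6 and 4.93% in Oct4+ and 0% in each DP library, and had neither mark in Pdgfra+. Its window also had H3K27me3, at 4.7, 33.1 and 44% in Oct4+, 0, 29.2 and 8.5% in DP and 0, 5.79 and 8.85% in Pdgfra+. H3K9me3 there covered 15.4, 8.13 and 0% in Oct4+, 22, 20.7 and 22.1% in DP and 21.5, 7.06 and 17.7% in Pdgfra+. Prdm14, a repressor of the de novo methyltransferases in embryonic stem cells, had H3K27me3 at 12.2, 9.97 and 6.93% in DP and 0 in all others, and a peak in 3 of 3 DP and 0 of 3 Oct4+ libraries was found for 7.45% of genes. For H3K9me3, Lig1 and Idh1 were listed in 3 of 3 Oct4+ libraries and 0 of 6 others, the pattern of Tet3. Peaks in 3 of 3 Oct4+ and 0 of 3 DP libraries were found for 4.89% of genes. With 0 of 3 Pdgfra+ libraries the share was 8.26%. In the other direction, every DP library lay above every Oct4+ library for Ehmt1 and Dppa3, against 9.23% of genes. Every Pdgfra+ library did so for Ehmt1, against 6.86%. Of the 15 list genes with an H3K9me3 peak, 6 had a higher mean in Oct4+ than in Pdgfra+ and 9 a lower one.

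Over the 36 libraries, scaled within each mark, covered percent of Tet3 was the least like that of the other members, with Pearson correlations of 0.00846 to 0.347, whereas Tet1 and Uhrf1 reached 0.767. These correlations share list length across all genes and are given as descriptions. The genes most like each member in this measure over the 36 libraries were Add1 (r = 0.974) and Tor3a (0.967) for Tet1, Actr2 (0.87) and Olfr153 (0.859) for Tet2, and Ildr2 (0.821) and Vangl1 (0.816) for Tet3. For the other members they were Pitpna (0.96) and Plcd3 (0.942) for Dnmt1, Lrrc24 (0.965) and Ulk1 (0.964) for Uhrf1, and Zcchc2 (0.961) and Zmiz2 (0.945) for Dnmt3l.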

How the data were processed

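CUT&Tag was performed by the authors on FACS-sorted nEnd, with paired-end sequencing. The submitters' processing notes name bcl2fastq 2.19.1, Bowtie2, SAMtools 1.12, deepTools, SEACR, bedtools 2.26.0 and the build mm10. The authors called peaks per library with SEACR in stringent mode against IgG from fragment coverage, and each deposited line gives an interval with its total and maximum signal, in whole units of coverage. The sources used here give neither read depth nor the SEACR normalization setting, so weak marks can be missing from a list, and the listing limit differed between lists. The 3 IgG samples were not used.

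Windows were GENCODE vM21 gene bodies on GRCm38 with 20 kb on either side. The covered percent of each window was computed in Python 3.11.15 (numpy 2.4.6, pandas 2.3.3), checked on 1 library against bedtools 2.31.1, and compared by an exact permutation F test (two-sided by construction), which was tested on simulated data, with Benjamini-Hochberg adjustment over all genes. limma 3.58.1 was an alternative. The paper describes the replicates behind its H3K4me1 and H3K27ac tracks as 3 biological ones. Labels number the replicates 1 to 3 without naming separate cultures, so p-values measure the spread between these libraries. Fewer than all same-numbered pairs deviated together (r over 0.1) in each mark, and the numbers were not treated as pairs. Sequences came from RefSeq and the GRCm38 genome. The members, gene lists and tests were chosen with earlier results of these data known. All 6 members were named, and regions and the genes of the 24-gene list were named only where all libraries of a population had a peak or separated from another population. Peaks at neighbouring genes were also given. The values of 1 gene of that list are not reported here. Other windows, measures, peak thresholds, filters, tests and left-out libraries were tried as alternatives.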

Additional observations from a re-analysis of the deposited data

How the results depend on the processing

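The number of members called by the exact permutation test was 0 for each mark under every other window, measure, peak threshold and gene filter and with each library left out in turn (0 to 0 members). limma moved it to 1 for H3K27me3 and to 1 for H3K9me3, in both cases Tet3. The cause of this difference between tools was not tested. With the replicate number as a replicate block it was 0 for all 4 marks, and the smallest reachable p was 0.0278. As reported, a call needed 703 to 1337 genes at the smallest p, depending on the mark, and 18 to 91 reached it. These counts of 0 therefore cannot show that the result is stable. Same-numbered libraries correlated by over 0.1 in 4, 1, 3 and 1 of 9 pairs for H3K4me1, H3K27ac, H3K27me3 and H3K9me3. Libraries of different numbers reached 0.656, 0.518, 0.416 and 0.3. This check therefore cannot tell whether same-numbered libraries came from 1 culture. Of 374 combinations of 17 Oct4+ minus Pdgfra+ gaps and alternatives, 325 kept their sign, 16 took the opposite sign, 11 fell to 0, and 22 belong to Dnmt1 H3K27me3, whose gap was 0 as reported (-2.58 with 50 kb on either side). The exact permutation test and limma compared all 3 populations together and did not test these gaps themselves. Of the 17 gene and mark pairs the exact permutation test called none, and limma called 2, both at Tet3. The opposite signs were, at a common minimum of total signal, Dnmt1 and Dnmt3l H3K27ac (-1.98 and -3.07 percentage points) and Tet2 H3K9me3 (-0.624), by share of total signal Dnmt1 and Uhrf1 H3K27ac (-0.0147 and -0.0171), with 50 kb on either side Dnmt3l and Tet2 H3K9me3 (-1.78 and -0.84) and Tet3 H3K27ac (3.07), with the 50% of peaks of highest signal Tet2 H3K9me3 (-0.179) and Tet3 H3K27ac (1.39), and with equal numbers of peaks Tet2 H3K9me3 (-1.22). Leaving out 1 library at a time gave -1.33 to 7.8 for Dnmt3l H3K4me1 (turned without Oct4+ replicate 2), -0.316 to 1.52 for Tet2 H3K9me3 (without Pdgfra+ replicate 2 or 3), -2.68 to 0.0357 for Tet3 H3K27ac (without Pdgfra+ replicate 2) and -7.54 to 1.33 for Tet3 H3K4me1 (without Pdgfra+ replicate 3). The cause was not tested. The unadjusted p of Tet1 for H3K27ac rose above 0.05 without DP replicate 1 or 3 or Pdgfra+ replicate 1 or 2, and that of Tet2 in the same cases and without Pdgfra+ replicate 3. Unknown depth limits every absence of a peak.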
